A study of Mus musculus with 8 samples.

Results

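The cytosolic ribosome of mouse cells is built from a small (40S) and a large (60S) subunit, and each subunit pairs ribosomal RNA with a set of proteins encoded by single genes scattered over the genome. The 40S subunit reads the mRNA and the 60S subunit joins the amino acids. The acidic proteins of the P-stalk on the 60S subunit recruit the factors that drive each elongation step. The mRNAs of these proteins typically begin with a C followed by a run of pyrimidines, the terminal oligopyrimidine (TOP) tract, through which growth signalling via mTOR controls their translation together. Spermatogonial stem cells depend on this control of protein synthesis for self-renewal, and the testis also expresses autosomal copies of some ribosomal protein genes, such as Rpl10l and Rpl39l, whose parent genes lie on the X chromosome, which is silenced during meiosis.

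The members were the genes of the expression table whose symbols begin with Rpl or Rps and a number, together with Rpsa and the P-stalk genes Rplp0, Rplp1 and Rplp2. The ribosomal S6 kinase genes and names marked as pseudogenes were left out. This took in 87 of 31010 genes. A total of 31 encode core 40S proteins, 43 encode core 60S proteins and 3 encode the P-stalk. The other 10 names are paralogs or related genes that the naming pattern takes in (Rpl3l, Rpl7l1, Rpl10l, Rpl22l1, Rpl36al, Rpl39l, Rps27l, Rps27rt, Rps19bp1 and Rps23rg1). A mean of at least 1 FPKM (fragments scaled to the exon length of the gene and the size of the library) over all lines was required for a test, and 86 members passed; Rps23rg1, at 0.0289 to 0.264 FPKM, did not. Every core gene passed.

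The mRNA of 8 lines of germline stem (GS) cells was sequenced. GS cells are cultured spermatogonia enriched for stem cell activity, kept in long-term culture with GDNF and FGF2. The study states that self-renewal of its B6-GS cells was driven with MHY1485, and whether these lines received it is not given. Control lines 29, 37, 44 and 45 came from first-generation mice born after natural mating, and ICSI lines 11, 17, 20 and 21 came from first-generation mice born after ICSI (intracytoplasmic sperm injection, the placing of a single sperm inside an oocyte). All carry the labels WT and B6. Per the study's methods, sperm for ICSI came from green mice, which express an Egfp transgene, and whether the lines inherited it is not given. The cultures were started from CD9-selected spermatogonia of mature testes. Before collection, cells were plated on gelatin to remove feeder fibroblasts, and the fibroblast markers still measured are given below. The line numbers match those of separate first-generation mice in the study's supplement, while the labels give neither their age nor their litters. With 1 culture and library per number, the p-values measure the spread between these lines, in which differences between mice, cultures and libraries cannot be told apart. The titles of lines 29, 37, 11 and 17 are written with hyphens and those of lines 44, 45, 20 and 21 with underline characters (_). Processing notes name different versions of the same tools for the hyphen-titled and the underline-titled lines, whereas the study's methods name 1 set for all, a conflict that could not be settled; each form holds 2 lines of each group, so the form was treated as a possible batch. Tool version, depth and any other property of the forms cannot be told apart.

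The reads recovered from the FPKM values numbered 24707726 to 26661965 in the hyphen-titled lines and 32358059 to 44280009 in the underline-titled ones, and a tested member had at least 4 reads in every line. All 12 spermatogonial markers were above 0 in every line, from Dazl, an RNA-binding protein of germ cells, at a mean of 337 FPKM down to Itga6 at 18.0 FPKM and Id4, a marker of stem cells, at 12.8 FPKM (5.38 to 25.0 over the lines). The summed level of 12 fibroblast markers was 907, 270, 920 and 259 FPKM in control lines 29, 37, 44 and 45 and 286, 418, 654 and 366 FPKM in ICSI lines 11, 17, 20 and 21. No fibroblast marker was at 0 in any line. Sertoli cell markers summed to at most 8.98 FPKM, Leydig cell markers to at most 1.89 FPKM, with Insl3 at 0 in most lines, and macrophage markers to at most 17.3 FPKM, nearly all from Cd68. In these bulk samples, fewer cells of a type and less RNA per cell cannot be told apart.

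The ribosomal protein genes were among the most abundant transcripts of GS cells. Their median level was 142 FPKM, against 8.58 FPKM over all 12000 genes tested, and 30 of them were among the 100 genes with the highest mean. Together they made up 8.29%, 7.29%, 7.02% and 7.32% of all summed FPKM in control lines 29, 37, 44 and 45. Their share was 6.92%, 6.14%, 7.53% and 7.70% in ICSI lines 11, 17, 20 and 21. Control line 29 was the highest and ICSI line 17 the lowest, and the groups overlapped (7.48% ± 0.56 in control and 7.07% ± 0.70 in ICSI lines, SD, n = 4). The members took 2.56% to 3.60% of the recovered reads, and their summed exon length had a median of 1737 bases, against 4297 for all genes tested.

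**Figure D1:**
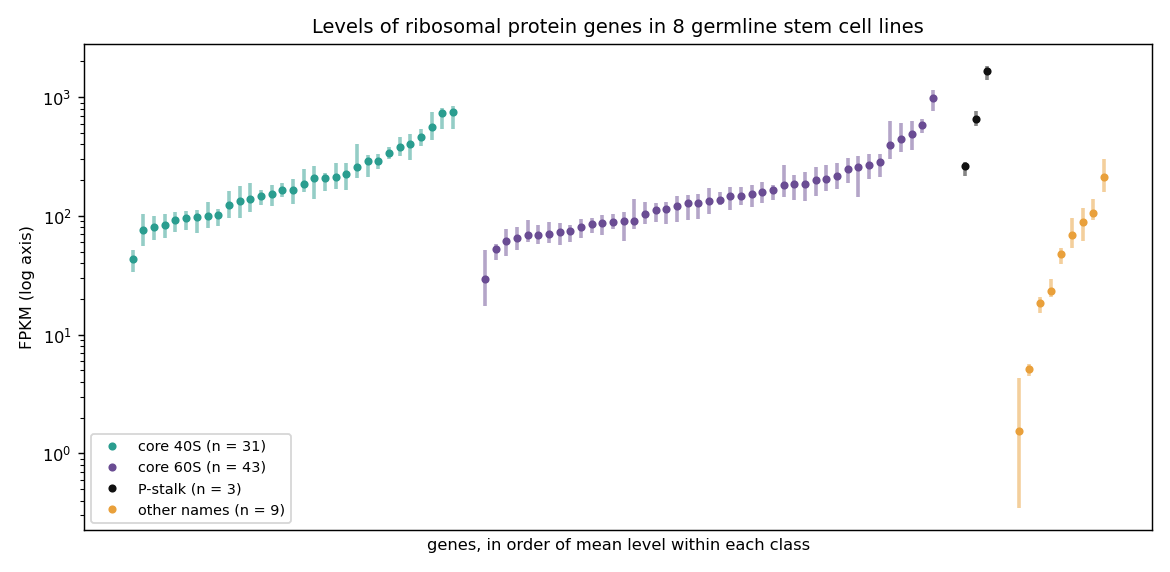
Mean FPKM over 8 lines (points, log axis) and the range over the lines (vertical bars) of the 86 ribosomal protein genes tested, in order of their mean within each class. Core genes ran from 29.2 FPKM (Rpl39) to 1650 FPKM (Rplp1), while the other names reached down to 1.55 FPKM (Rps27rt).

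The P-stalk held the highest value of all. Rplp1, an acidic stalk protein, averaged 1650 FPKM (1392 to 1828 over the lines), Rplp0, the base of the stalk, averaged 657 FPKM (568 to 767) and Rplp2, the partner of Rplp1, averaged 263 FPKM (217 to 286). In the 40S subunit the median was 166 FPKM. Among its highest genes were Rps15 (735 FPKM), Rps3a1 (558) and Rps21 (405), and its lowest were Rps19 (43.3), a gene mutated in Diamond-Blackfan anaemia, the X-linked Rps4x (75.5), Rps15a (80.5), Rps13 (84.7) and Rps10 (92.2). Rpsa, which also goes by the name of laminin receptor, was at 291 FPKM, and Rps27a, made as a fusion with ubiquitin, was at 211 FPKM. In the 60S subunit the median was 133 FPKM. Rpl4 (976 FPKM), Rpl8 (580), Rpl32 (489), Rpl19 (441) and Rpl13a (399) were its highest genes, and Rpl39 (29.2), Rpl27a (52.9), Rpl35a (61.5), Rpl10 (65.1) and Rpl11 (68.5), a protein that can bind Mdm2, were its lowest. The sum of the core 60S genes was 1.07 to 1.13 times that of the core 40S genes in every line, a narrower range than that of the total.

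The range between the lowest and highest core gene was 56.5-fold on the FPKM scale. The length by which FPKM divides joins all annotated exons of a gene, retained introns included, and reached 6270 bases for Rps15a and 6256 bases for Rps24, whose longest coding sequences hold 393 and 402 bases. Across the 77 core genes the level fell with that length (Spearman's rho = -0.50 across genes, which are not independent). Dividing the reads by the coding length instead, the range was 15.4-fold, Rplp1 was again the highest and Rps24 moved from rank 54 to rank 2. Rps4x and Rpl10, both on the X chromosome, were then the lowest. Levels between genes are therefore read here only on the FPKM scale stated, while comparisons of one gene between lines are untouched by its length.

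Many members also have near-identical processed copies. Of the 76-base stretches of a member's mRNA, a median of 25.9% occurred in a transcript of a gene elsewhere in the annotation, mostly a pseudogene. For 21 tested members that share was 50% or more (Rps27rt with 90.3%, Rpl36a with 84.6%, Rps6 with 84.1% and Rpl23a with 81.6% among them), and for 5 it was 0% (Rps3, Rpl3l, Rpl39l and Rps19bp1 among them). How reads with several positions were counted is not given in the sources used here, so the level of such a member is uncertain. The share and the level were nearly unrelated across core genes (Spearman's rho = -0.04). Rpl24, Rpl35 and Rpl30 additionally overlap another annotated gene over 68.1%, 54.8% and 46.8% of these stretches, and since the library kit differs between the labels and the study's methods, the strand could not be used to set those reads apart. Ribosomal proteins outside the naming pattern were measured too: Rack1, the scaffold protein of the 40S head, averaged 194 ± 27.2 FPKM (control) and 175 ± 13.9 FPKM (ICSI; SD, n = 4), and Fau, which carries a 40S protein fused to a ubiquitin-like protein, averaged 147 ± 25.2 and 132 ± 11.7 FPKM.

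The TOP tract was looked for at annotated start sites. RefSeq (GRCm38.p6) gave a promoter for 57 of the 77 core genes, with 67 start sites. A run of at least 8 C or T letters overlapping the stretch from 5 bases before to 10 bases after the start was found at 35.8% of these, against 11.6% of all 32851 annotated promoters. The start base itself was C at 31.3% against 16.3%. Most core start sites thus showed no such run. The starts used in these cells were not measured, so a missing run at an annotated start does not show that the mRNA lacks the tract. In the 300 bases around the start, CCGGAAG, the core letters of the GABP/ETS motif, occurred on either strand at 37.3% of the core start sites against 8.86% of all promoters, AAGATGGC (YY1) at 10.4% against 2.75%, GGGCGG (the GC box of SP1) at 61.2% against 35.7%, TATAAA (the TATA box) at 8.96% against 13.6% and CACGTG (the E-box) at 11.9% against 7.15%. These are matches of letters and not measured sites. The windows below run from 10 bases before the annotated start to 20 bases from it on, with the longest pyrimidine run near the start in capitals. The first set shows core genes with a run of at least 8 C or T letters across the annotated start. Among them are Rpl35a (chr16:33056472-33056501, + strand), Rps18 (chr17:33955646-33955675, - strand), Rps27 (chr3:90213629-90213658, - strand) and Rplp2 (chr7:141447641-141447670, + strand). The other annotated starts of Rpl35a, not shown, have runs of 4 and 5.
Rpl35a: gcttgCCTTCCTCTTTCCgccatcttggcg
Rps18: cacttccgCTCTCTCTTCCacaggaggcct
Rps27: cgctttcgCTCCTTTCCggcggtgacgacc
Rplp2: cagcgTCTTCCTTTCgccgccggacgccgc
The second set pairs parents with the paralogs described further on. Rps27rt (chr9:114982720-114982749, - strand) repeats the end of the tract of Rps27 and the letters that follow it. That repeated end begins at the annotated start of Rps27rt and is as long as its run in capitals. Rpl22l1 (chr3:28805498-28805527, + strand) carries a run of 10 pyrimidines right after its start, and the site shown for Rpl22 (chr4:152324426-152324455, + strand) one of 5. Runs of 8 in Rpl39 (chrX:37085203-37085232, - strand) and 7 in Rpl39l (chr16:10170218-10170247, + strand) lie after and before the start, respectively. Rpl10 (chrX:74270806-74270835, + strand) and Rpl10l (chr12:66284382-66284411, - strand) have runs of 3 and 4.
Rps27rt: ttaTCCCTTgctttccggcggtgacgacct
Rpl22: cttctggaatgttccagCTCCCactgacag
Rpl22l1: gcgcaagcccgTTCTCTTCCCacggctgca
Rpl39: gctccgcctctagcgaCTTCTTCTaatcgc
Rpl39l: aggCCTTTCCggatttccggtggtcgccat
Rpl10: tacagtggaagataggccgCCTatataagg
Rpl10l: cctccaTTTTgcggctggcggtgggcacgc

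The lines were compared to ask whether GS cells of ICSI-derived mice differ in expression from those of naturally conceived mice, within a study of offspring produced by assisted reproduction. No ribosomal protein gene was called between the groups (0 of 86, where 0.0% of all 12000 genes were called; limma on log2(FPKM + 1), Benjamini-Hochberg adjusted p under 0.05). Without adjustment, 0 members and 55 of the 12000 genes had a p under 0.05. With limma-voom on the recovered reads 0 genes were called, with 0 members and 51 genes at an unadjusted p under 0.05. Both are smaller shares than the 0.05 that no difference would give. Neither fit included the title form, so differences between the forms were part of the spread against which the group was tested. The members nevertheless leaned to one side: 80 of 86 had a lower mean in ICSI lines, with a median difference of -0.11 on the log2(FPKM + 1) scale (0.926-fold), while 55.7% of all genes were lower, with a median of -0.01. All 31 core 40S genes and the 3 stalk genes were lower and 39 of 43 core 60S genes were. No member had every ICSI line below or above every control line.

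The largest differences stayed within the spread between lines. Rps12, a 40S protein, was at 280, 251, 241 and 204 FPKM in control lines 29, 37, 44 and 45 and at 204, 166, 225 and 218 FPKM in ICSI lines 11, 17, 20 and 21. The highest ICSI values thus lay inside the control range (difference -0.26 ± 0.14, SE; adjusted p = 1.00 with limma; exact permutation p = 0.114, two-sided). Rpl38, a 60S protein whose loss alters patterning of the mouse skeleton, averaged 199 ± 15.4 FPKM over control lines and 169 ± 27.2 FPKM over ICSI lines (SD, n = 4; difference -0.25 ± 0.14, SE). Rpl18 averaged 101 ± 27.5 and 81.9 ± 4.22 FPKM (-0.26 ± 0.17), and Rpl36 was at 274 ± 37.5 and 246 ± 87.6 FPKM (-0.22 ± 0.25). The most negative difference was that of Rps27rt (-0.54 ± 0.37), which shares nearly all of its sequence with Rps27. On the higher side stood Rpl39l (199 ± 67.4 FPKM, control, and 229 ± 26.5 FPKM, ICSI; 0.25 ± 0.20), Rpl24 (0.13 ± 0.17), Rpl22l1 (0.05 ± 0.26), Rpl35a (0.03 ± 0.19) and Rpl22 (0.005 ± 0.13). Over all 86 members the exact permutation p was never under 0.114, where 0.0286 is the smallest that 4 lines against 4 can give. The permutations did not take the title form into account. Rplp1 (-0.03 ± 0.17), Rplp0 (-0.02 ± 0.14), Rplp2 (-0.08 ± 0.12), Rpsa (-0.04 ± 0.13) and Rps27a (-0.02 ± 0.15) were close to 0.

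The lean depended on single lines. ICSI line 17 had the lowest value of the 8 lines in 69 of 86 members (80.2%, against 11.5% of all genes). The highest value lay in control line 29 for 33 members (38.4%, against 13.1% of all genes). In ICSI line 20 it lay for 32 members (37.2%, against 20.6% of all genes). Without ICSI line 17 the median of the members was -0.02, with 32 higher and 54 lower, and without ICSI line 20 it was -0.18. The mean log2(FPKM + 1) of the core genes was 7.53, 7.41, 7.40 and 7.38 in control lines 29, 37, 44 and 45 and 7.28, 7.05, 7.54 and 7.41 in ICSI lines 11, 17, 20 and 21. Both hyphen-titled ICSI lines thus lay below every control line and both underline-titled ICSI lines above every underline-titled control line. The summed fibroblast markers were at 907, 270, 920 and 259 FPKM in control lines 29, 37, 44 and 45. In ICSI lines 11, 17, 20 and 21 they were at 286, 418, 654 and 366 FPKM. They were thus high in control line 29 and ICSI line 20, where the core mean was highest, and also in control line 44. Their part in the result was not tested.

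**Figure D2:**
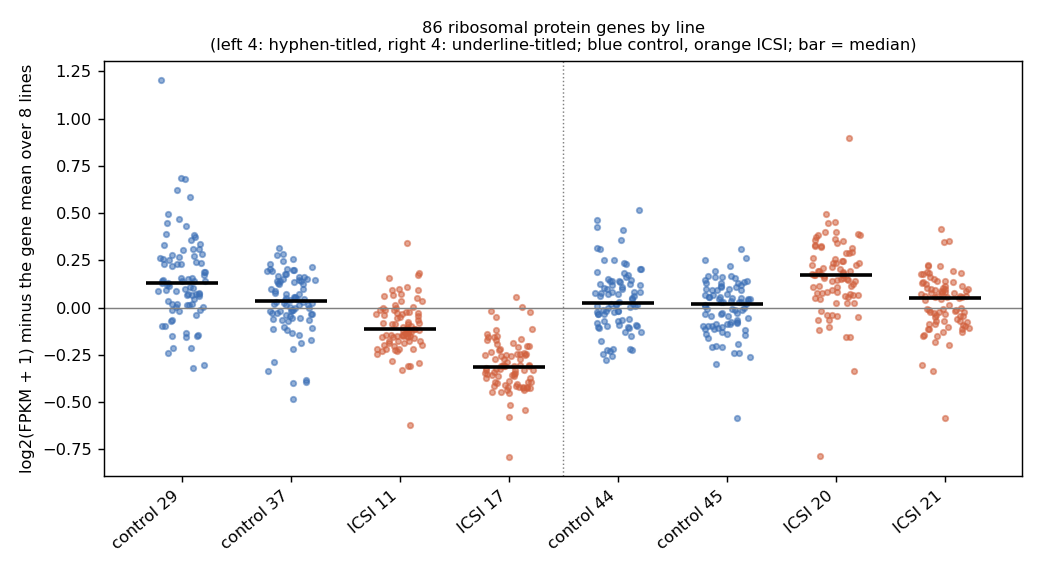
The 86 ribosomal protein genes in each line, as log2(FPKM + 1) minus the mean of the gene over the 8 lines. Points are genes, bars are medians, blue is control and orange is ICSI. Nearly all genes of ICSI line 17 lie below 0, and the bars of control line 29 and ICSI line 20 are the highest.

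The ICSI difference was therefore taken within each title form. In the hyphen-titled lines 83 of 86 members were lower in ICSI, with a median of -0.30 (0.812-fold), while the median over all genes was -0.02. In the underline-titled lines 77 of 86 were higher, with a median of 0.09 (1.06-fold) against -0.01 over all genes. Both ICSI lines lay below both control lines in 73 members (84.9%) of the hyphen-titled set, where 20.5% of all genes did so. Above both control lines were 17 members (19.8%) in the underline-titled set, against 5.17% of all genes, and 16 members showed both patterns, against 1.11% of all genes. These members moved together, so they are not independent observations of the pattern.

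The interaction of group and title form asks whether the ICSI difference itself differed. None of the 12000 genes was called for it (0.0%), members included, and limma-voom also called 0. At an unadjusted p under 0.05 stood 13 of 86 members, where 1.23% of all genes did (147 of 12000), and 12 members and 125 genes with limma-voom. How many members stood there depended strongly on which line was left out. Such a fit holds only 1 line in one combination of group and form, so its counts are not given. The median term of the members was 0.25 to 0.48 when each line was left out. With all lines, the term was positive in 83 of 86 members with a median of 0.38 against 0.005 over all genes, and in all 77 core genes. Rps18, a 40S head protein, gave the smallest unadjusted p: it was at 183 and 166 FPKM in hyphen-titled control lines, 147 and 122 in hyphen-titled ICSI lines, 133 and 146 in underline-titled control lines and 157 and 160 in underline-titled ICSI lines, an interaction of 0.56 ± 0.20 (SE; limma adjusted p = 1.00). Rpl13a, a 60S protein, had the largest term (0.72): it stood at 628 and 405 FPKM against 377 and 303 in the hyphen-titled lines and at 334 and 367 against 358 and 419 in the underline-titled ones. The exceptions below 0 were the paralogs Rpl39l (-0.27), Rpl10l (-0.05) and Rpl22l1 (-0.02). With quantile normalization the median was 0.23, with 78 members positive.

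**Figure D3:**
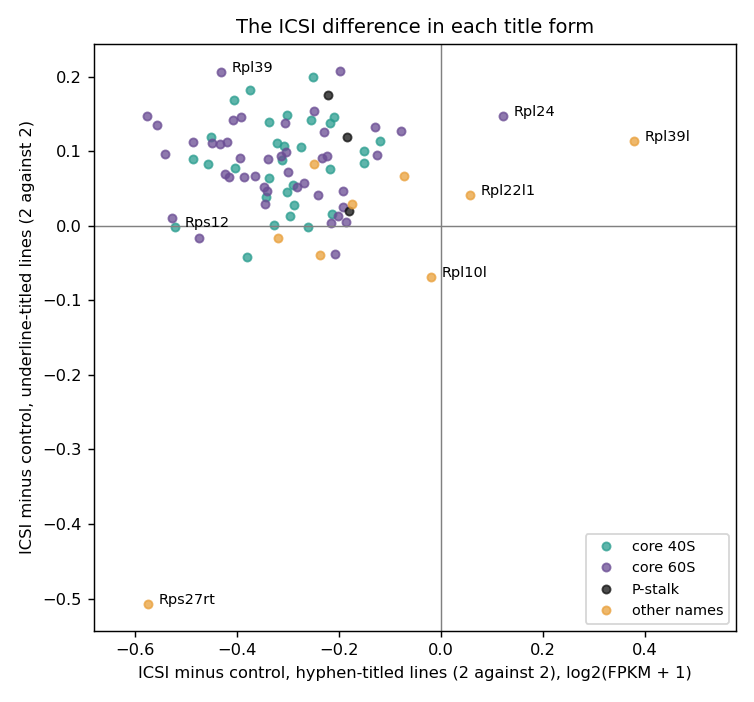
The difference ICSI minus control in mean log2(FPKM + 1) for each of 86 members, in the hyphen-titled lines (x axis, 2 against 2) and the underline-titled lines (y axis, 2 against 2). Most members lie at the upper left, lower in ICSI in one form and higher in the other, with Rpl39l, Rpl22l1 and Rpl24 to the right of 0.

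Related gene lists moved less. Of the 78 mitochondrial ribosomal protein genes, which serve the separate ribosome of mitochondria, 50 were lower in ICSI lines (median -0.03), and the interaction had a median of 0.24. The 22 other TOP mRNAs, mainly translation factors, had 20 lower genes (median -0.06) and an interaction of 0.17, and the 66 genes of ribosome biogenesis and RNA polymerase I had 55 lower genes (median -0.06) and 0.12. None of these genes was called for the group or the interaction. The 4 lists share the same lines and controls, and no test compared them.

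Between the title forms, members did differ. Underline-titled and hyphen-titled lines were compared with the group as covariate, and 11 of 86 members (12.8%) were called, 9 higher and 2 lower in the underline-titled lines, where 16.0% of all genes were called (10.2% higher and 5.76% lower). The share of members called was thus close to that of all genes. The median difference was 0.14 against 0.03 over all genes, with 57 of 86 members higher. The direction depended on the scaling: with quantile normalization 11 members were again called, but 3 higher and 8 lower, and the median was -0.03. With TPM and with median-of-ratios scaling 8 were higher and 2 lower. Counts over all genes under these scalings are not given here. Among control lines alone the median was -0.08, and among ICSI lines alone it was 0.31.

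Rpl22l1, the paralog of the 60S protein gene Rpl22, gave the smallest p. It was at 69.5, 61.1, 70.4 and 65.4 FPKM in lines 29, 37, 11 and 17 and at 116, 103, 110 and 115 FPKM in lines 44, 45, 20 and 21. Every underline-titled line lay above every hyphen-titled line (0.73 ± 0.08, SE; limma adjusted p = 0.0079; exact permutation p = 0.0286). Rpl39, which lines the exit tunnel of the 60S subunit, was at 28.4, 20.9, 17.6 and 18.1 FPKM in the hyphen-titled lines and at 34.4, 32.9, 52.1 and 29.1 FPKM in the underline-titled ones. Its smallest underline-titled value exceeded its largest hyphen-titled value only narrowly (0.77 ± 0.20; adjusted p = 0.037). The other called 60S genes were higher as well. Rpl36 rose from 211 ± 54.2 to 309 ± 16.6 FPKM (SD, n = 4; 0.58 ± 0.17), Rpl35a from 51.4 ± 6.44 to 71.5 ± 5.34 (0.47 ± 0.11) and Rpl24, whose product forms a bridge to the 40S subunit, from 113 ± 6.62 to 152 ± 15.6 (0.43 ± 0.09). Rpl21 rose from 111 ± 11.5 to 148 ± 4.22 FPKM and Rpl29 from 99.8 ± 12.8 to 128 ± 3.11. Rpl10, which joins the 60S subunit late in its maturation, rose from 57.4 ± 5.21 to 72.8 ± 6.49 FPKM. For these called genes, the share of stretches found in a gene elsewhere was 76.7% (Rpl24), 71.0% (Rpl10), 70.5% (Rpl36) and 41.8% (Rpl22l1). It was 28.0% (Rpl29), 22.6% (Rpl35a), 16.1% (Rpl21) and 7.3% (Rpl39) in the others. Another gene overlapped 68.1% of the stretches of Rpl24 and 15.4% of those of Rpl22l1. Whether reads with several positions were counted alike in both title forms was not tested.

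The 40S subunit gave a call in each direction. The share of stretches found in a gene elsewhere was 29.2% for Rps13 and 35.4% for Rps16. Rps13 rose from 73.8 ± 6.46 to 95.5 ± 4.95 FPKM (0.37 ± 0.09). Rps16 was at 191, 168, 153 and 133 FPKM in lines 29, 37, 11 and 17 and at 116, 112, 107 and 122 FPKM in lines 44, 45, 20 and 21, so that all underline-titled lines lay below all hyphen-titled ones (-0.48 ± 0.11, SE; limma adjusted p = 0.024; exact permutation p = 0.0286). Rps27rt was the other lower gene (2.31 ± 1.39 and 0.787 ± 0.625 FPKM), at few reads and with lines of both forms at 1.71 FPKM. Rps14 (-0.38 ± 0.15), Rpl41 (-0.32 ± 0.17) and Rpl18 (-0.30 ± 0.14) followed among the lower members, and Rps27 (0.47 ± 0.15) among the higher ones, none of them called. In all, 18 members had every underline-titled line above every hyphen-titled line, where 16.0% of all genes did, and 3 had every line below, where 10.8% did.

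Most of these calls were lost when some of the lines were left out. The count was 1 without ICSI line 11, control line 37 or control line 44, 2 without ICSI line 17, 6 without ICSI line 20 or control line 45, and 8 and 9 without ICSI line 21 and control line 29; over all genes it was then between 210 and 2691. Rpl22l1 was called in each of these 8 fits (0.69 to 0.76). With no filter on low genes 4 members were called, and with limma-voom 8, of which 7 were higher. Counts over all genes for these settings are not given here, so these counts do not set the members apart from other genes. The underline-titled lines were also deeper and had a higher sum of spermatogonial markers (1118 to 1328 FPKM, against 806 to 935). Not every marker followed the sum. Ret, Zbtb16, Lin28a, Itga6 and Nanos3 overlapped between the forms, with Nanos3 at 23.4 to 36.9 FPKM in underline-titled and 26.8 to 37.7 FPKM in hyphen-titled lines. The part of depth or of marker levels in these differences was not tested.

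**Figure D4:**
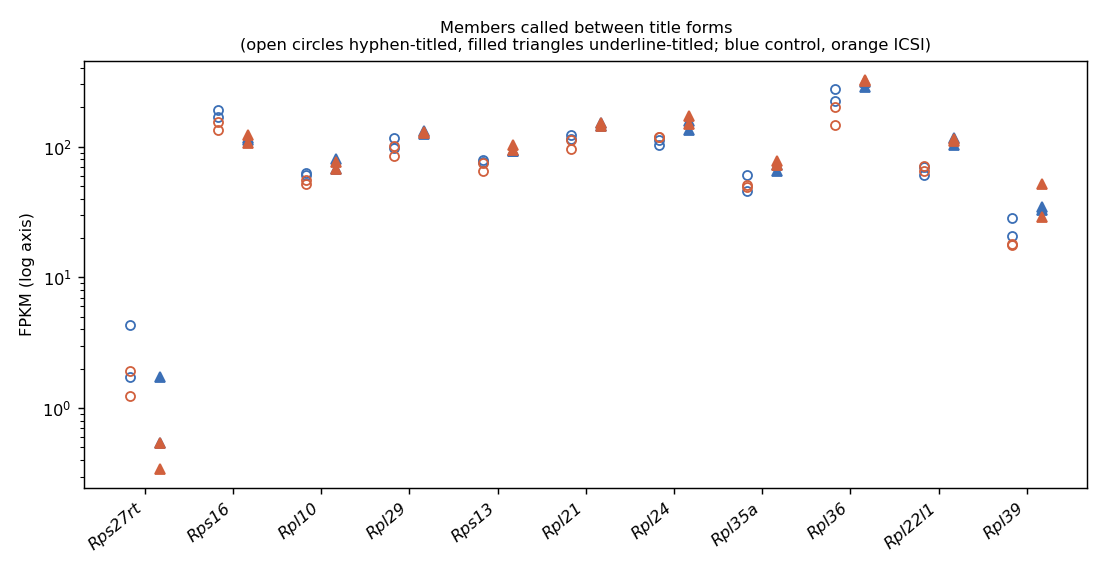
FPKM (log axis) of the 11 members called between title forms, with one symbol per line: open circles for hyphen-titled and filled triangles for underline-titled lines, blue for control and orange for ICSI. Of the 11, Rps27rt and Rps16 sit lower in the underline-titled lines.

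The paralogs stood at very different levels relative to their parents. Rpl39l, on chromosome 16, shares 85.3% of its coding bases with the X-linked Rpl39. It was at 168, 159, 208 and 218 FPKM in lines 29, 37, 11 and 17 and at 300.1, 170, 268 and 224 FPKM in lines 44, 45, 20 and 21, while Rpl39 never exceeded 52.1 FPKM. The paralog was thus at 5.14 to 12.1 times the FPKM of its parent, and at 2.98 to 6.99 times per coding length. Few stretches of either mRNA occur elsewhere (0% for Rpl39l and 7.3% for Rpl39). Hyphen-titled ICSI lines had the highest ratios (11.8 and 12.1, against 5.91 and 7.63 in hyphen-titled control lines), but the underline-titled lines did not follow (5.14 and 7.68 against 8.72 and 5.17).

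Rpl10l, an intronless copy on chromosome 12 with 84.8% of the coding bases of Rpl10, was at 102, 91.8, 94.1 and 96.8 FPKM in the hyphen-titled lines and at 140, 97.8, 128 and 96.8 FPKM in the underline-titled lines. On the FPKM scale it was at 1.44 to 1.88 times the X-linked Rpl10 (51.4 to 80.3 FPKM). With reads divided by coding length instead, it was below its parent in all 8 lines (0.716 to 0.938 times), so which of the pair was higher depended on the length used. Either ratio is uncertain, because 71.0% of the stretches of Rpl10 occur elsewhere and 0.1% of those of Rpl10l do. Rpl22l1, with 71.9% of the coding bases of Rpl22 in common, was below its parent in control lines 29 and 37 and ICSI line 11 (0.847 to 0.968 times) and above it in the other 5 lines (1.09 to 1.55 times) on the FPKM scale. Per coding length it was above its parent in 2 lines, control lines 44 and 45, and below it in 6 (0.607 to 1.11 times over the 8 lines). Rpl22 itself ranged from 60.1 to 84.5 FPKM.

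Other copies stayed below their parents in all lines, on the FPKM scale given here and per coding length. Rps27l, a paralog that responds to p53, was at 0.252 to 0.438 times Rps27, Rpl36al at 0.236 to 0.306 times the X-linked Rpl36a, Rpl7l1 at 0.205 to 0.269 times Rpl7 and the muscle gene Rpl3l at 0.0302 to 0.0414 times Rpl3. Rps27rt carries the coding sequence of Rps27 base for base (100%) and reached 0.345 to 4.34 FPKM. Rps19bp1, which encodes a protein that binds Rps19, was at 15.2 to 20.7 FPKM. A total of 14 comparisons of 7 log2 ratios were tested by exact permutation, for the group and for the form. The FPKM ratio of Rpl22l1 to Rpl22 had a geometric mean of 0.937 in hyphen-titled and 1.42 in underline-titled lines, with no overlap (p = 0.0286, exact, adjusted 0.20), and that of Rpl7l1 to Rpl7 had means of 0.257 and 0.225 (p = 0.0286, exact, adjusted 0.20). No ratio passed the adjustment, and for the group every exact p was at least 0.343.

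**Figure D5:**
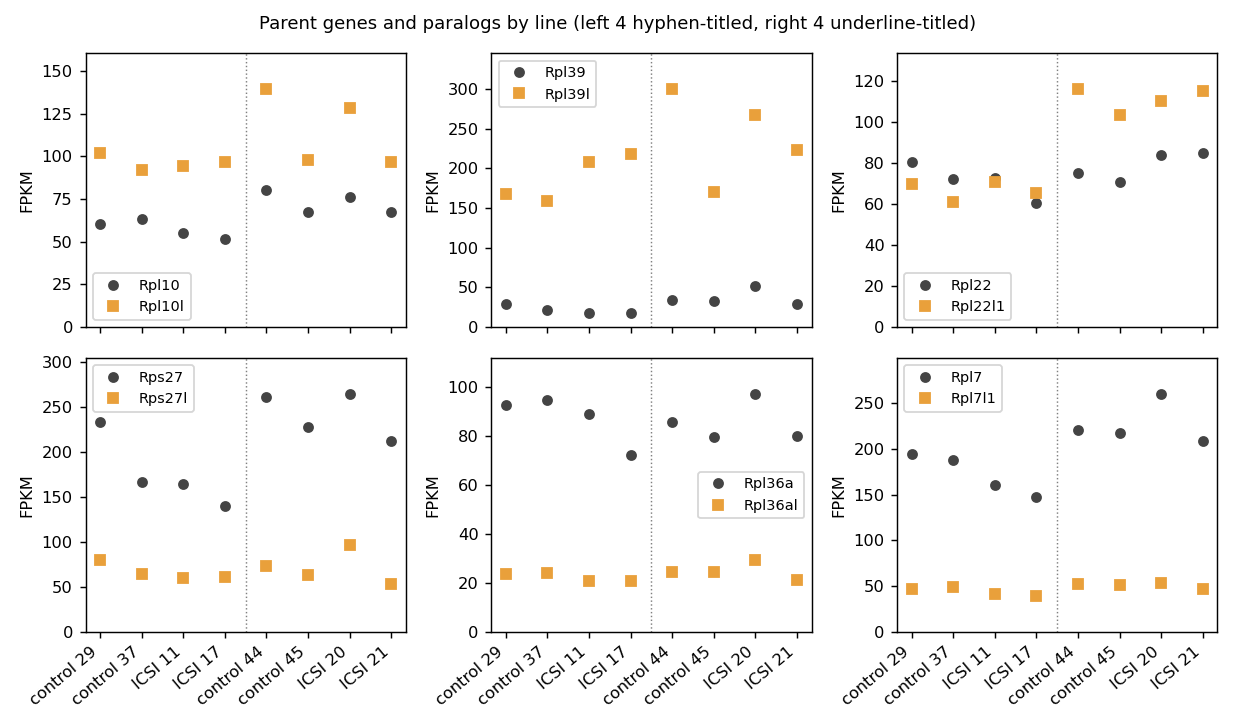
FPKM of 6 parent genes (dark circles) and their paralogs (orange squares) by line, on axes that start at 0, with the hyphen-titled lines to the left of the dotted line. On this scale Rpl39l and Rpl10l lie above their parents in all lines, while per coding length Rpl10l lies below Rpl10 in all 8. Rpl22l1 lies below Rpl22 in 3 hyphen-titled lines and above it in the other 5 lines (above it in 2 lines per coding length), and Rps27l, Rpl36al and Rpl7l1 lie below.

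Across the lines the members rose and fell together. The median Pearson's r between the log2(FPKM + 1) of pairs of members over the 8 lines was 0.59 (88.2% of 3655 pairs above 0), and 0.63 among the core and stalk genes, while it was 0.01 over all genes, 0.39 among mitochondrial ribosomal protein genes, 0.30 among the other TOP mRNAs and 0.24 among biogenesis genes. With each title form set to a mean of 0 it was 0.72 among members and 0.01 over all genes. The genes of a line share its library and scaling, so these values are descriptions. Rpl31 (r = 1.00), Rps24 (0.98) and Rps25 (0.97) followed the mean of the core genes most closely. Least alike were Rpl3l (-0.02), Rpl39l (-0.02), Rps16 (0.03), Rps27rt (0.04) and Rps14 (0.25). The members varied no more than other genes in all: the median SD of log2(FPKM + 1) over the lines was 0.20 for members and 0.21 for all genes. Rps27rt (0.65), Rpl39 (0.51), Rpl36 (0.40), Rpl22l1 (0.40) and Rps27 (0.34) varied most. Within the core, the highest line was 1.26 times the lowest for Rps29 and 2.97 times for Rpl39, with a median of 1.56.

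Outside the members, the genes whose levels were most like the core mean over the 8 lines were Tmub2 (r = 0.95), Tomm20 (0.93), Psma7 (0.93), Eif2s3x (0.92), Tsfm (0.91), Dctn3 (0.91), Sra1 (0.91), Ndufa7 (0.90), Mtif3 (0.90) and Uba3 (0.89). Tmub2, for example, was at 14.3, 13.0, 13.1 and 13.9 FPKM in control lines 29, 37, 44 and 45. In ICSI lines 11, 17, 20 and 21 it was at 12.9, 10.3, 15.1 and 14.1 FPKM. Its lowest value lay in ICSI line 17, as did that of the core mean. These genes were picked for their likeness to that mean, so this is not a separate observation. How high the best r over all genes would be without any link was not tested.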

How the data were processed

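RNA-seq of 8 GS cell lines, 4 per group, was analysed from the FPKM values the authors deposited. Per the study's methods and labels, the authors trimmed single 76-base reads with cutadapt, mapped them to mm10 with STAR and counted them per gene with htseq-count; the processing notes name STAR 2.7.9a, cutadapt 3.4 and HTSeq 0.13.5 for the hyphen-titled lines and STAR 2.6.0c, cutadapt 1.16 and HTSeq 0.11.2 for the others. The deposited log2 fold change and the deposited adjusted p-value of the authors' own comparison were not used.

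Genes averaging 1 FPKM or more were tested on log2(FPKM + 1) with limma 3.58.1 in R 4.3.3 (trend, two-sided, Benjamini-Hochberg over 12000 genes, threshold 0.05), which was checked on simulated data. The pseudocount of 1 understates changes of low genes. FPKM values were whole multiples of 1 read for 99.4% of the genes above 0 (tolerance 0.02), which gave the reads used with limma-voom. The precision at low values is set by depth: 3 reads in a gene of 1 kb correspond to 0.068 to 0.12 FPKM, for counting error only. The title form was a covariate or an interaction term where named. Coordinates and shared 76-base stretches came from GENCODE M21 transcripts on GRCm38, in an earlier release than the authors' annotation.

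The members, lists and tests were chosen with earlier results of these data known. Genes named were the stalk genes, Rpsa, Rps27a, the 5 highest and 5 lowest genes of each subunit, every paralog with its parent, the 5 largest differences each way per comparison, the 5 largest SDs, all called members, Fau, Rack1, and the 10 non-members with the highest r to the core mean; the examples of the interaction and of shared sequence were chosen after their values were seen. A few genes under this rule are not reported here. Alternatives were other pseudocounts, filters and scalings, TPM, single title forms or groups, limma-voom and leaving out each line. For the group comparison, adding the title form as a covariate was another. The restriction to members with few shared stretches, paralog ratios per coding length and alternatives for the interaction median were added after seeing the data.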

Additional observations from a re-analysis of the deposited data

Results flagged for a closer look

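In 98 groups of 4 lines examined for a line far from the others, 6 stood out, where chance gives about 1 in 20. Rpl39l was at 300.1 FPKM in control line 44, with the next control line at 170 FPKM. In control line 29, Rpl19 was at 604 FPKM with the next control line at 430 FPKM, and Rpl11 was at 91.95 FPKM with the next at 67.7 FPKM. ICSI line 20 held 128 FPKM of Rpl10l, where the next ICSI line had 96.8 FPKM, and 29.3 FPKM of Rpl36al, where the next had 21.02 FPKM. ICSI line 17 held 499 FPKM of Rpl8, below the 571 FPKM of the next.

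The share of all summed FPKM that came from ribosomal protein genes differed in direction between the title forms. Both hyphen-titled ICSI lines lay below both hyphen-titled control lines (a difference of -1.26 percentage points), and both underline-titled ICSI lines lay above both underline-titled control lines (0.445 percentage points). This difference in direction was not tested for the share, which is a sum over members.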

How the results depend on the processing

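No paired analysis was possible because the line numbers differ between the groups. The count of members called between ICSI and control lines, and for the interaction, was 0 under every alternative run. The median ICSI difference was -0.30 in hyphen-titled lines alone and 0.0863 in underline-titled lines alone, and -0.18 to -0.02 when each line was left out. The count between title forms was 4 with no filter, 0 in ICSI lines alone and 0 in control lines alone (2 lines against 2). Counts over all genes are not given for these settings. When each line was left out, 1 to 9 members were called. The median between title forms was 0.31 in ICSI lines alone, -0.0762 in control lines alone and -0.0274 with quantile normalization. It was 0.05 to 0.18 when each line was left out. The interaction median was 0.23 with quantile normalization and 0.25 to 0.48 when each line was left out. The ICSI difference in the share of summed FPKM was -0.407 percentage points, and -0.616 to -0.0965 when each line was left out, smallest without ICSI line 17 and -0.137 without control line 29. Single genes turned direction: Rpl18 (0.0102) and Rpl36 (0.10) in underline-titled lines alone and Rpl22 (-0.20) and Rpl35a (-0.0770) in hyphen-titled lines alone for the ICSI difference, and Rpl41 (0.0305) in ICSI lines alone for the form. Leaving out each line gave -0.38 to 0.00453 for Rpl36, -0.0542 to 0.11 for Rpl22, -0.10 to 0.13 for Rpl35a and -0.10 to 0.20 for Rpl22l1. The causes were not tested. With reads per coding length (added after seeing the data), the mean log2 ratio turned from 0.70 to -0.31 for Rpl10l to Rpl10 and from 0.21 to -0.28 for Rpl22l1 to Rpl22, by the construction of the scale. The match of 76-base stretches against the genome was not run, since transcripts alone were used here; over the 19 members with under 10% of such stretches in other transcripts, the medians were -0.08 for ICSI against control, 0.14 between title forms and 0.35 for the interaction (chosen after seeing the data).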
